A study of Danio rerio with 15 samples.

Results

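Matrix metalloproteinases (Mmps) are zinc-dependent enzymes that cut collagens, fibronectin and other proteins of the extracellular matrix, and tissue inhibitors of metalloproteinases (Timps) are small secreted proteins that bind their active sites and block them. Of the 10 zebrafish genes listed for these families, 7 had a row in the expression table: the gelatinases mmp2 and mmp9, the membrane-type mmp14a, mmp13a and mmp30, and the inhibitors timp2b and timp4.2. The other 3, mmp14b, timp2a and timp3, were not analysed here. The table held 14836 genes, of which 10235 passed a filter on low values and were tested. Of the 7 members with a row, 6 passed that filter and mmp13a did not.

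The libraries came from fins of wild-type zebrafish collected 0, 4, 7, 14 and 21 days post amputation (dpa), with 3 libraries per time point. Each library pooled fin tissue of 10 animals, cut 1 bone segment above to 1 below the plane of amputation, so a library averages over animals and over the plane's epidermis, mesenchyme, bone and blood cells. The sample labels give 4 dpa for the second time point, where the series' design text gives 3.5 dpa, and it is called 4 dpa here. No genotype, drug or transgene distinguishes the groups, which differ in the time of collection. The series title concerns Erk signalling and skeletal size memory. The time course asks how transcripts at the plane change as the fin regrows and whether they return to their 0 dpa level.

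A zebrafish fin regrows from a wound epidermis and a blastema, a mass of dividing cells, and old matrix has to be cut and new matrix laid down while bone is rebuilt. Mmps are made as inactive precursors. In mammals, Timp2 bound to membrane-type Mmp14 holds the precursor of Mmp2 at the cell surface, where a free Mmp14 molecule cuts and activates it, so Timp2 takes part in activation as well as in inhibition. Transcript levels say nothing direct about activity.

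Values are TPM, transcript abundances that are corrected for transcript length and so can be compared between genes, divided by a factor for each library (median-of-ratios, from 0.575 to 1.48) and called scaled TPM. An rRNA-type gene took from 2.26 to 71.6% of TPM, with over 60% in 4 libraries: 4 dpa replicate 3, 7 dpa replicates 1 and 2, and 21 dpa replicate 2. Depth, recovered from whole-read steps among low TPM values, spanned a 5.65-fold range over the libraries and a 19.4-fold range outside that gene, with 4 dpa replicate 3 the shallowest. Effective-length offsets placed the libraries in set A (0 dpa, 4 dpa and 7 dpa replicates 1 and 3) and set B (7 dpa replicate 2, 14 dpa and 21 dpa), and the labels name no batch. The 4 against 0 dpa comparison lies within set A. For 14 and 21 against 0 dpa, library set and time cannot be told apart. Only 7 dpa holds libraries of both sets. A fit with library set as a covariate thus takes the set effect from 7 dpa replicate 2 against replicates 1 and 3.

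In scaled TPM, transcripts of mmp2, mmp9 and mmp14a rose at the plane by 4 dpa. Their libraries lay above those of 0 dpa at each later time, while timp2b rose at 4 and 7 dpa and its later libraries overlapped with 0 dpa. On TPM as deposited, the 4 and 21 dpa ranges of mmp2, mmp9 and mmp14a each overlapped with 0 dpa. Over the 5 time points, 4 of the 6 tested members changed (moderated F test in limma, with an adjusted p under 0.05), beside 26.7% of all tested genes. These were mmp2, mmp9, mmp14a and timp2b. At 4 against 0 dpa the same 4 members rose and none fell, beside 7.87% of tested genes that rose and 7.26% that fell. In 5 of the 6 members every 4 dpa library was above every 0 dpa library, beside 15.3% of tested genes. The median log2 change of the 6 members at 4 against 0 dpa was 1.02, and that of all tested genes was -0.03. With the TPM as deposited, without scaling, only timp2b of these members kept its call at 4 against 0 dpa, and the count over time was also 1. In that setting 5.19% of all tested genes were called in either direction at 4 against 0 dpa, and 8.49% over time. Changes over all genes shifted with the scaling, with a median log2 change at 4 against 0 dpa of 0.25 for deposited TPM and of 0.60 with the rRNA-type gene removed.

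**Figure D1:**
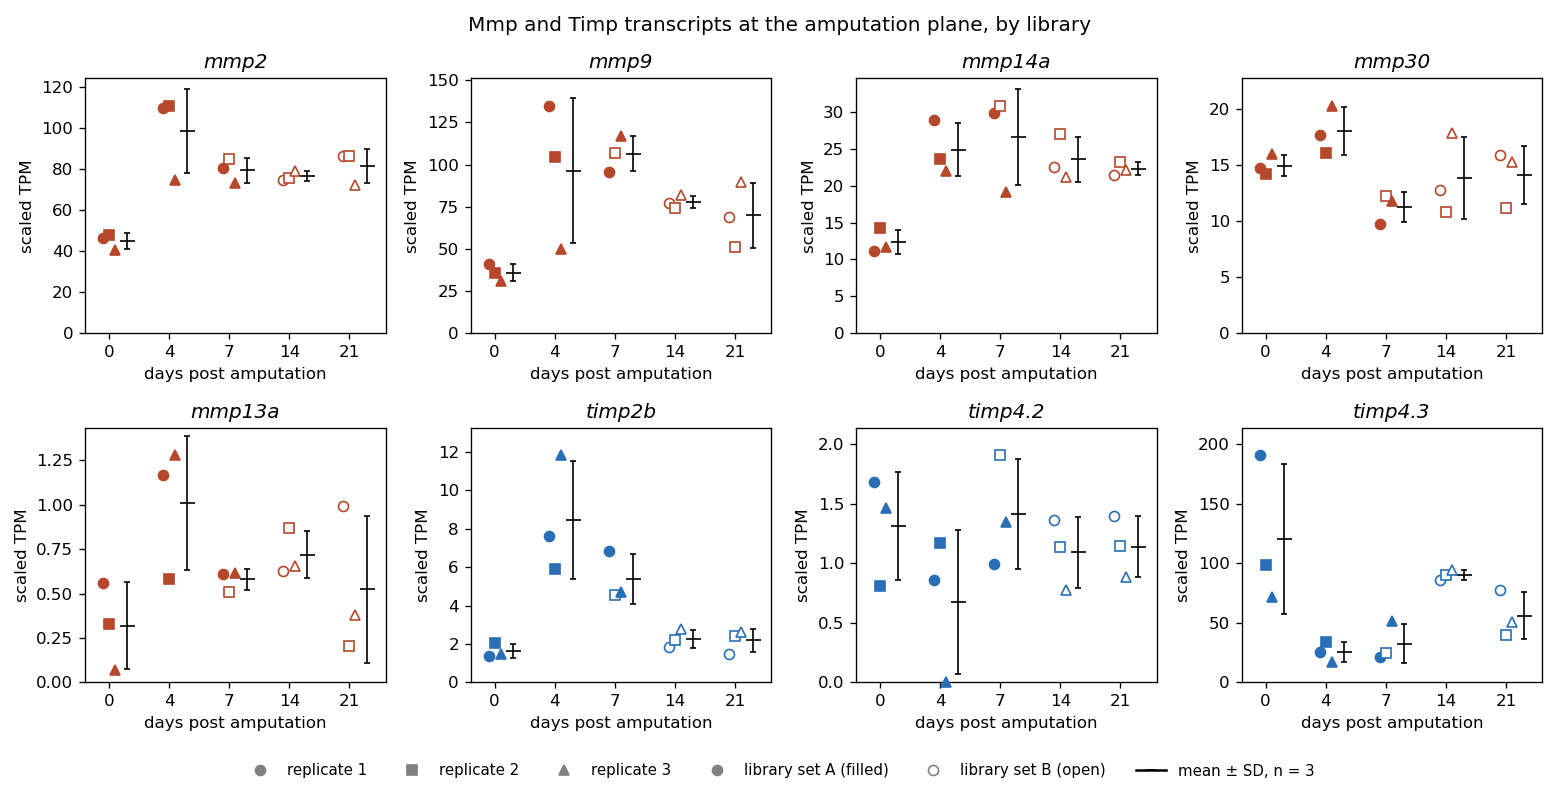
Scaled TPM (y axis, starting at 0, a different range for each gene) against days post amputation for 7 members and for timp4.3; symbols are replicates 1 to 3, filled for library set A and open for set B, and black marks give mean ± SD of 3 libraries. The mmp2, mmp9 and mmp14a points at 0 dpa lie below all their later points, and the timp2b points are high at 4 and 7 dpa.

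Among the enzymes, mmp2 was one of the 2 most abundant transcripts. Mmp2 is a gelatinase that degrades denatured collagen and the collagen IV of basement membranes. Its scaled TPM was 46.6, 48.0 and 40.6 in the 0 dpa libraries, 109.9, 111.1 and 74.9 at 4 dpa, 80.5, 85.0 and 73.2 at 7 dpa, 74.8, 75.8 and 79.3 at 14 dpa, and 86.5, 86.4 and 72.2 at 21 dpa. In scaled TPM all 12 later libraries were above all 3 at 0 dpa, and the later time points overlapped one another. The 4 dpa mean was 98.6 ± 20.6, against 45.05 ± 3.95 at 0 dpa (SD, n = 3 each). On the log2(scaled TPM + 1) scale, mmp2 rose by 1.09 ± 0.19 (SE) at 4 against 0 dpa (limma, adjusted p = 0.00131). The changes at 7, 14 and 21 against 0 dpa were 0.81 (adjusted p = 0.0265), 0.76 (0.0220) and 0.84 (0.00927), each with the same SE.

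The mmp2 rise at 4 dpa was called without any single library, with adjusted p from 5.21e-04 to 0.0117, and was not called on deposited TPM (log2 1.46, adjusted p = 0.0809). The 7 dpa call was less settled: it was lost without 0 dpa replicate 1 (adjusted p = 0.0584), 0 dpa replicate 3 (0.0877), 7 dpa replicate 1 (0.0927) or 7 dpa replicate 2 (0.125). The 14 dpa call was lost without 0 dpa replicate 3 (0.0778) or without 14 dpa replicate 1 (0.0635), replicate 2 (0.0772) or replicate 3 (0.0665). With library set as a covariate the log2 changes were 0.76 at 7, 0.61 at 14 and 0.70 at 21 against 0 dpa, and none was called. In fits of only the 2 time points compared, the adjusted p was 0.156 at 7, 0.0657 at 14 and 0.0848 at 21 against 0 dpa.

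The other gelatinase, mmp9, reached a similar level. Mmp9 is made by wound epidermis and by inflammatory cells in many tissues. Its scaled TPM was 40.9, 35.9 and 31.1 at 0 dpa, 134.9, 104.4 and 49.9 at 4 dpa, 95.7, 107.1 and 116.7 at 7 dpa, 77.5, 74.2 and 81.7 at 14 dpa, and 68.9, 50.9 and 89.8 at 21 dpa. Every later library was again above every 0 dpa library. The 3 libraries at 4 dpa were far apart, and the lowest, replicate 3, was the library with 71.6% rRNA. The mean was 96.4 ± 43.05 at 4 dpa, against 35.96 ± 4.92 at 0 dpa (SD, n = 3 each), and it was highest at 7 dpa, at 106.5 ± 10.5. The 7 and 4 dpa libraries overlapped, and the log2 difference at 7 against 4 dpa was 0.25 (limma, adjusted p = 0.758). Without 4 dpa replicate 3 that difference was -0.165, so the higher mean at 7 dpa depended on this library.

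The mmp9 change at 4 against 0 dpa was a rise of 1.29 ± 0.30 on the log2 scale (SE; limma, adjusted p = 0.0102). It rose by 1.54 at 7 against 0 dpa (adjusted p = 0.0102) and by 1.099 at 14 against 0 dpa (0.0350). At 21 against 0 dpa the log2 difference was 0.91 with adjusted p = 0.0623, which missed the threshold although the groups did not overlap. The 3 libraries at 14 dpa were all below the 3 at 7 dpa, with a log2 difference of -0.45 (adjusted p = 0.520).

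The mmp9 call at 7 dpa held without any single library, with adjusted p from 0.00132 to 0.0487, and was lost on deposited TPM (0.348). The call at 4 dpa was lost on deposited TPM (adjusted p = 0.0899), without 4 dpa replicate 1 (log2 0.99, 0.0589), when only 0 and 4 dpa libraries were fitted (0.0785) and within library set A (0.0608). Without 4 dpa replicate 3 the log2 change was 1.71 (adjusted p = 5.17e-04). The 14 dpa call was lost on deposited TPM (0.144), with library set as a covariate (0.788) and without any 1 of the 0 dpa or 14 dpa libraries: the adjusted p was 0.0550, 0.0687 and 0.105 without 0 dpa replicates 1, 2 and 3, and 0.0924, 0.0955 and 0.0912 without 14 dpa replicates 1, 2 and 3. The call over time was lost on deposited TPM (adjusted p = 0.156) and without 0 dpa replicate 3 (0.0567). The RefSeq table places mmp9 over 3 other entries (dclre1b, adora1b and zgc:110353), so reads of overlapping genes may have been shared here too.

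The membrane-type enzyme mmp14a was less abundant than both gelatinases. Mmp14 sits in the plasma membrane, cuts fibrillar collagen and activates the Mmp2 precursor. Scaled TPM of mmp14a was 11.1, 14.3 and 11.7 at 0 dpa, 28.9, 23.6 and 22.0 at 4 dpa, 29.9, 30.8 and 19.1 at 7 dpa, 22.5, 27.0 and 21.2 at 14 dpa, and 21.5, 23.2 and 22.1 at 21 dpa. No later library overlapped the 0 dpa range, and the later time points could not be separated from one another. The mean was 24.9 ± 3.60 at 4 dpa, against 12.4 ± 1.68 at 0 dpa (SD, n = 3 each).

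On the log2 scale mmp14a rose by 0.95 ± 0.20 (SE) at 4 against 0 dpa (limma, adjusted p = 0.00488), by 1.02 at 7 (0.00984), by 0.88 at 14 (0.0137) and by 0.81 at 21 against 0 dpa (0.0154). The 4 dpa call held without any single library, and on deposited TPM its adjusted p was 0.0773. At 7 against 0 dpa the call was lost without 7 dpa replicate 1 (adjusted p = 0.0568) or replicate 2 (0.0661). These are the 7 dpa libraries with over 60% rRNA, and replicate 3 had the lowest mmp14a value at 7 dpa, 19.1 scaled TPM. Over the alternative settings the log2 change at 7 against 0 dpa ranged from 0.59 to 1.73. At 14 dpa it was lost without 14 dpa replicate 2 (0.0733), and at 21 dpa without 0 dpa replicate 1 (0.0531), 0 dpa replicate 3 (0.0504) or 21 dpa replicate 2 (0.0535). With library set as a covariate the log2 changes were 0.91 at 7, 0.52 at 14 and 0.45 at 21 against 0 dpa, none of them called. In fits of only the 2 time points compared, mmp14a was not called at 7 (adjusted p = 0.123) or 21 against 0 dpa (0.0626), and with the rRNA-type gene removed it was not called at 21 against 0 dpa (0.0970).

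Within each library, mmp14a amounted to 23.8 to 29.8% of mmp2 TPM at 0 dpa, 21.3 to 29.4% at 4 dpa, 26.1 to 37.1% at 7 dpa, 26.7 to 35.6% at 14 dpa and 24.9 to 30.5% at 21 dpa. Such a ratio does not depend on the scaling, and its ranges overlapped between all time points. Over the 15 libraries the Pearson correlation of mmp2 with mmp14a was 0.86, and that of mmp2 with mmp9 was 0.81. These coefficients are descriptions across libraries that share time points and scaling.

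The remaining enzymes were mmp30 and mmp13a, which lie close together in the RefSeq gene order of assembly GRCz12tu, with 1 protein-coding entry between them. The mmp30 scaled TPM was 14.7, 14.2 and 15.95 at 0 dpa, 17.7, 16.1 and 20.3 at 4 dpa, 9.75, 12.3 and 11.8 at 7 dpa, 12.8, 10.8 and 17.9 at 14 dpa, and 15.85, 11.1 and 15.3 at 21 dpa. The 4 dpa libraries were all above, and the 7 dpa libraries all below, those at 0 dpa. Neither difference passed the test, with log2 values of 0.25 at 4 (adjusted p = 0.454) and -0.38 at 7 against 0 dpa (0.286). At 7 against 4 dpa the log2 difference of mmp30 was -0.63 ± 0.20 (SE; adjusted p = 0.104), and the groups did not overlap. The direction at 7, 14 and 21 against 0 dpa depended on the scaling: with the rRNA-type gene removed these log2 values were 0.30, 0.45 and 0.32, where the median of all genes shifted by 0.54, 0.45 and 0.30, and on deposited TPM the 14 dpa value was 0.29. With the rRNA-type gene removed the 4 against 0 dpa value was 1.02 (adjusted p = 0.0403), beside a shift of all genes of 0.60.

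Mmp13 is a collagenase that cuts fibrillar collagens. The mmp13a transcript was scarce, with a TPM of at least 1 in 1 of 15 libraries. If the smallest step in its values is 1 read, it had 14, 7 and 1 reads at 0 dpa, 39, 18 and 6 at 4 dpa, 7, 4 and 14 at 7 dpa, 6, 10 and 11 at 14 dpa, and 12, 1 and 4 at 21 dpa. In scaled TPM these were 0.560, 0.330 and 0.0701 at 0 dpa and 1.17, 0.582 and 1.28 at 4 dpa. The 3 libraries at 4 dpa were above the 3 at 0 dpa, replicate 2 at 4 dpa by little. Fitted without the filter, mmp13a had a log2 difference of 0.61 ± 0.19 (SE) at 4 against 0 dpa with adjusted p = 0.0543 (limma). Its adjusted p over time was 0.178, so no change was called. The mean was 1.01 ± 0.376 at 4 dpa, against 0.320 ± 0.245 at 0 dpa (SD, n = 3 each). The 1 added to each value before the log is larger than every 0 dpa value and close to the 4 dpa mean. This log2 difference therefore understates the change in scaled TPM.

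**Figure D2:**
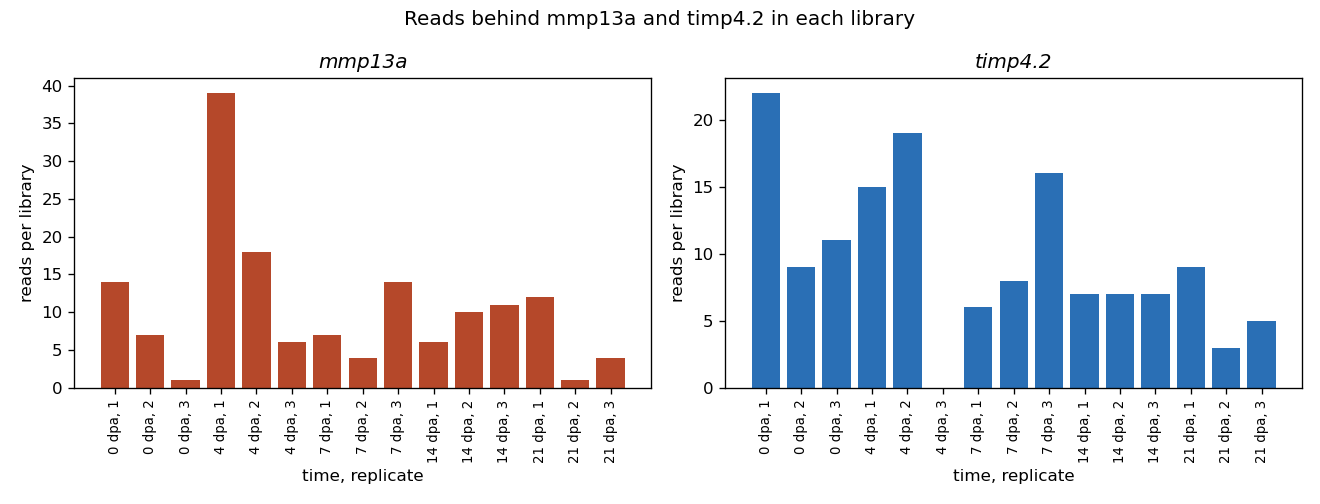
Bars give the reads behind mmp13a (left) and timp4.2 (right) in each of the 15 libraries, taking the smallest step of the TPM values as 1 read; the x axis gives the time point and replicate and the y axis starts at 0. The highest mmp13a bar is 39 reads in 4 dpa replicate 1, and timp4.2 has 0 reads in 4 dpa replicate 3.

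Of the 6 tested members, the inhibitor timp2b had the largest log2 rise at 4 dpa. Its scaled TPM was 1.39, 2.06 and 1.50 at 0 dpa, 7.61, 5.88 and 11.8 at 4 dpa, 6.85, 4.55 and 4.73 at 7 dpa, 1.85, 2.22 and 2.76 at 14 dpa, and 1.49, 2.43 and 2.63 at 21 dpa. All libraries at 4 and 7 dpa were above all others, and the 14 and 21 dpa libraries overlapped with 0 dpa. The mean was 8.44 ± 3.06 at 4 dpa, against 1.65 ± 0.359 at 0 dpa (SD, n = 3 each).

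On the log2(scaled TPM + 1) scale timp2b rose by 1.79 ± 0.23 (SE) at 4 against 0 dpa (limma, adjusted p = 1.43e-04) and by 1.26 at 7 against 0 dpa (0.00695). The 7 dpa call was lost on deposited TPM (adjusted p = 0.0816), when only 0 and 7 dpa were fitted (0.0517) and without the 4 libraries of highest rRNA share (0.157). This log2 scale understates the change of a transcript so near the pseudocount. At 14 and 21 against 0 dpa the log2 differences were 0.31 (adjusted p = 0.450) and 0.26 (0.506). The 4 dpa call was kept under each of the 9 alternative settings, deposited TPM among them, and without any single library, with log2 values from 1.56 to 2.55 and adjusted p from 1.26e-04 to 0.00644.

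The return of timp2b was less firm. It fell by 0.95 ± 0.23 (SE) at 14 against 7 dpa (log2; adjusted p = 0.0363), the only one of the 6 tested members called there, beside 1.86% of tested genes that fell. This call was lost in 6 of 8 alternative settings and without any of 8 single libraries: 0 dpa replicate 3 (adjusted p = 0.0511), 4 dpa replicate 1 (0.0548), 7 dpa replicates 1 (0.167), 2 (0.0698) and 3 (0.0521), and 14 dpa replicates 1 (0.140), 2 (0.125) and 3 (0.0624). In each of them the direction was the same, and the log2 change lay between -1.20 and -0.71. The RefSeq table places timp2b over another protein-coding entry, and reads of overlapping genes may have been shared.

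Against its partner enzymes, timp2b amounted to 12.5 to 14.4% of mmp14a TPM at 0 dpa, 24.9 to 53.7% at 4 dpa, 14.8 to 24.8% at 7 dpa, 8.20 to 13.0% at 14 dpa and 6.94 to 11.9% at 21 dpa. The share was thus highest at 4 dpa, though its lowest library there (24.9%) barely exceeded the highest at 7 dpa (24.8%). At 21 dpa the share lay below the 0 dpa range, also by little, and library set and time cannot be told apart there. As a share of mmp2 it was 2.98 to 4.29% at 0 dpa, 5.29 to 15.8% at 4 dpa, 5.36 to 8.51% at 7 dpa, 2.46 to 3.48% at 14 dpa and 1.72 to 3.64% at 21 dpa. The highest share at 4 dpa, for both enzymes, came from replicate 3. The mmp2 shares overlapped between 4 and 7 dpa and between 21 and 0 dpa.

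The other inhibitor among the members, timp4.2, was near the lower limit of the data. Its reads, counted as for mmp13a, were 22, 9 and 11 at 0 dpa, 15, 19 and 0 at 4 dpa, 6, 8 and 16 at 7 dpa, 7, 7 and 7 at 14 dpa, and 9, 3 and 5 at 21 dpa. The 0 in 4 dpa replicate 3 allows up to 3 reads, or 1.22 scaled TPM in that library, counting error only, a limit within the range of the other libraries. In scaled TPM timp4.2 was 0.857, 1.17 and 0 at 4 dpa, against 1.68, 0.806 and 1.46 at 0 dpa, and the groups overlapped. The log2 difference at 4 against 0 dpa was -0.52 ± 0.26 (SE; limma, adjusted p = 0.200). Without 4 dpa replicate 3, the library with 0 reads, it was -0.18 (adjusted p = 0.652), and the adjusted p over time was 0.367.

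A close relative outside the listed members, timp4.3, was by far the most abundant of the 3 Timp transcripts with a row and moved the other way. In the RefSeq gene order timp4.1, timp4.2 and timp4.3 follow one another within the span of syn2b, so reads may have been shared among these related copies or with that gene. The timp4.3 scaled TPM was 190.9, 98.6 and 71.4 at 0 dpa, 25.4, 33.9 and 17.1 at 4 dpa, 21.7, 25.0 and 51.2 at 7 dpa, 85.6, 90.1 and 94.7 at 14 dpa, and 77.5, 40.0 and 51.0 at 21 dpa. All libraries at 4 and 7 dpa were below all libraries at 0 and 14 dpa, and the 0 dpa libraries were far apart among themselves. Their rRNA shares were 2.26, 22.1 and 36.1% in the same order. Within each time point the highest timp4.3 value came from the library with the lowest rRNA share. The part of the rRNA share in these values was not tested.

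On the log2 scale timp4.3 fell by 2.12 ± 0.39 (SE) at 4 against 0 dpa (limma, adjusted p = 0.00179) and by 1.83 at 7 against 0 dpa (0.0149). It was higher at 14 than at 7 dpa by 1.54 (adjusted p = 0.0427), and at 14 and 21 against 0 dpa the differences were -0.29 (0.684) and -1.02 (0.0975). The fall at 4 dpa was called without any single library and under each alternative except deposited TPM (log2 -1.75, adjusted p = 0.0665). The 7 dpa fall was followed in fewer settings, and a fit without the libraries of highest rRNA share is not given for it. It was not called on deposited TPM (adjusted p = 0.311) or with library set as a covariate (0.0847). With the rRNA-type gene removed (0.00877) and without 4 dpa replicate 3 (0.0122) it was called. The rise at 14 against 7 dpa was lost on deposited TPM (adjusted p = 0.147), without a filter (0.0607), with library set as a covariate (0.207), without the 4 libraries of highest rRNA share (log2 0.81, adjusted p = 0.430) and without any of 8 single libraries: 0 dpa replicate 2 (0.0503), 4 dpa replicate 1 (0.0629), 7 dpa replicates 1 (0.178) and 2 (0.142), 14 dpa replicates 1 (0.107), 2 (0.135) and 3 (0.126), and 21 dpa replicate 3 (0.0567). At 14 against 0 dpa its sign changed with the scaling, to 0.16 on deposited TPM and 0.32 with the rRNA-type gene removed. With library set as a covariate the sign changed too, to 0.11.

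**Figure D3:**
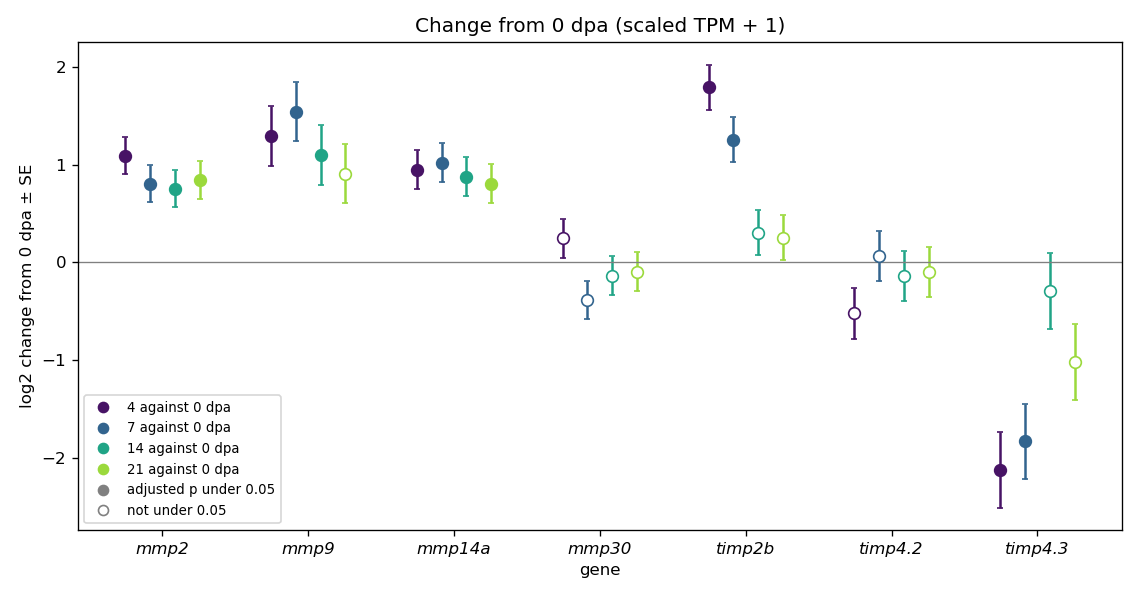
Log2 change of scaled TPM + 1 from 0 dpa at 4, 7, 14 and 21 dpa (y axis, ± SE from limma) for the 6 tested members and timp4.3; filled points have an adjusted p under 0.05. The values of mmp2, mmp9 and mmp14a stay between 0.76 and 1.54 at all times, timp2b is high at 4 and 7 dpa, and timp4.3 is below 0. The timp4.3 value at 14 dpa is above 0 on deposited TPM, with the rRNA-type gene removed and with library set as a covariate.

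All Mmp rows of the table were summed within each library, and likewise all Timp rows. The table held 8 Mmp rows and 3 Timp rows, so the sums do not cover the whole families. Genes without a row, among them mmp14b, timp2a and timp3, are not in them. The Mmp sum was 100.7 to 115.2 scaled TPM at 0 dpa, 170.2 to 293.9 at 4 dpa, 218.6 to 236.9 at 7 dpa, 190.3 to 202.7 at 14 dpa and 173.6 to 200.9 at 21 dpa. The Timp sum was 74.4 to 193.9 at 0 dpa, 28.9 to 40.95 at 4 dpa, 29.5 to 57.2 at 7 dpa, 88.8 to 98.3 at 14 dpa and 43.5 to 80.4 at 21 dpa. The sum of these Mmp rows was thus higher at every later time than at 0 dpa with no overlap. That of the 3 Timp rows was lower at 4 and 7 dpa with no overlap. On deposited TPM the Mmp sum overlapped with 0 dpa (76.1 to 132.1) at 4 dpa (119.3 to 429.9) and at 21 dpa (99.8 to 223.9), while the Timp sum at 4 and 7 dpa was below 0 dpa without overlap there and with the rRNA-type gene removed. The gelatinases mmp2 and mmp9 made up 71.1 to 84.9% of the Mmp sum in the 15 libraries.

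The ratio of the sums, which no scaling alters, was 0.594 to 1.35 Mmp transcripts per Timp transcript at 0 dpa, 5.89 to 8.67 at 4 dpa, 3.91 to 7.52 at 7 dpa, 2.04 to 2.14 at 14 dpa and 2.44 to 3.99 at 21 dpa. No later library had a ratio as low as those at 0 dpa. At 4 and 7 dpa this pattern rests on timp4.3, which made up 96.0 to 98.4% of the Timp sum at 0 dpa, 59.1 to 82.8% at 4 dpa and 73.4 to 89.4% at 7 dpa. With the members alone, timp4.3 left out, the ratio was 33.6 to 39.35 at 0 dpa, 14.2 to 36.3 at 4 dpa, 27.6 to 36.5 at 7 dpa, 56.2 to 58.6 at 14 dpa and 48.1 to 67.2 at 21 dpa. In that form the 4 and 7 dpa ranges overlapped with 0 dpa and the 14 and 21 dpa ranges lay above it. Within 0, 7 and 21 dpa the lowest ratio of the full sums came from the library with the lowest rRNA share. Within 4 and 14 dpa it did not, and a link with that share was not tested.

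**Figure D4:**
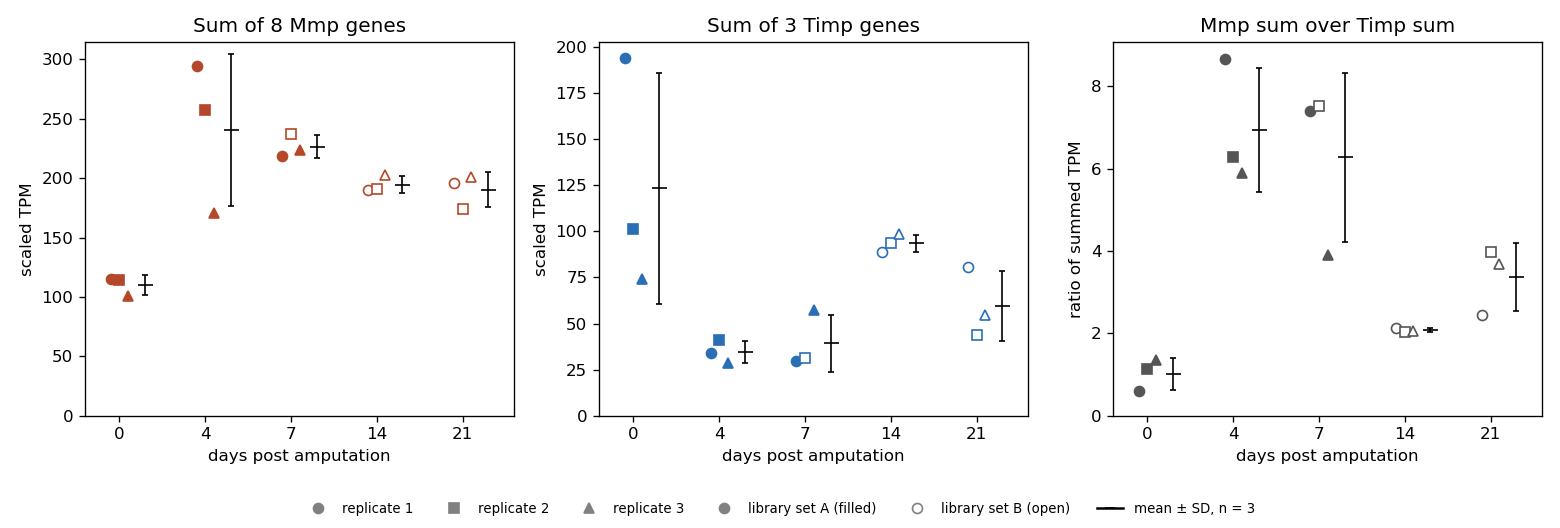
Summed scaled TPM of the 8 Mmp rows (left) and of the 3 Timp rows (middle), and the ratio of the sums (right), against days post amputation; points are libraries, filled for set A and open for set B, and black marks give mean ± SD of 3 libraries, with each y axis starting at 0. The Mmp sum is lowest at 0 dpa, the Timp sum is low at 4 and 7 dpa, and the ratio is highest at 4 and 7 dpa.

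Fewer members passed the test against 0 dpa at 14 and 21 dpa than at 4 and 7 dpa. At 7 against 0 dpa 4 of 6 members rose, beside 2.53% of tested genes, and 3 rose at 14 against 0 dpa, beside 4.56%. At 21 against 0 dpa 2 members, mmp2 and mmp14a, rose, beside 6.27% of tested genes. Members whose later libraries all lay above 0 dpa numbered 4 at 7 dpa, beside 10.4% of tested genes, 3 at 14 dpa, beside 14.6%, and 3 at 21 dpa, beside 14.8%. The only one with all later libraries below 0 dpa was mmp30 at 7 dpa, beside 10.8% of tested genes. At 7 against 4 dpa mmp30 alone was lower with no overlap, beside 10.2% of tested genes, and at 14 against 7 dpa mmp9 and timp2b were, beside 11.4%. None of the 6 members was called at 7 against 4 dpa, beside 3.63% of tested genes. Unadjusted p there was 0.00641 for mmp30, 0.0368 for timp2b and 0.0389 for timp4.2 (limma). The share of all tested genes with an unadjusted p that low was not computed, so these values do not set the members apart. For timp4.2 the log2 difference was 0.59, and 0.25 without 4 dpa replicate 3, its library with 0 reads. None of the members was called at 21 against 14 dpa either, beside 1.41% of tested genes. The comparisons with 0 dpa share those 3 libraries, so their values are not independent of one another.

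The numbers of members called under other settings stand here beside the share of all tested genes called in either direction. On deposited TPM 0 of 6 members were called at 7, 14 and 21 against 0 dpa, beside 0.303%, 1.94% and 1.925% of all tested genes. With library set as a covariate the members called numbered 4 at 4 against 0 dpa, beside 14.5% of genes, and 2 at 7 against 0 dpa (mmp9, log2 1.54, adjusted p = 0.0492, and timp2b, log2 1.35, adjusted p = 0.0274), beside 1.55%. In that fit 0 members were called at 14 and at 21 against 0 dpa, where 4 and 31 of all 10235 tested genes were called. Its set effect rests on 7 dpa alone, and the SE was wider. For mmp2 at 14 against 0 dpa the SE was 0.36, beside 0.19 without the covariate. The log2 estimates moved as well, in both directions. At 14 against 0 dpa mmp14a had 0.52, beside 0.88 without the covariate, and timp2b had 0.58, beside 0.31. The calls lost in that fit therefore decide nothing about set or time. Without the 4 libraries of highest rRNA share, a choice made after seeing the data, 4 members were called at 4 against 0 dpa, beside 13.5% of genes, 1 at 7 against 0 dpa, beside 0.385%, 3 at 14 against 0 dpa, beside 11.99%, and 3 at 21 against 0 dpa, beside 9.94%. Without 7 dpa replicate 2, which leaves 7 against 0 dpa within set A, 2 members were called there, mmp9 (adjusted p = 0.0487) and timp2b (0.0275), beside 1.555% of genes, and without 7 dpa replicate 1 the number was also 2, beside 1.87%. At 14 against 0 dpa 1 member was called without 0 dpa replicate 3 or without 14 dpa replicate 1 or 3, and 0 without 14 dpa replicate 2, beside 3.92 to 7.09% of genes. At 21 against 0 dpa 1 was called without 0 dpa replicate 1 or 3 or without 21 dpa replicate 2, beside 8.58 to 10.2% of genes.

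**Figure D5:**
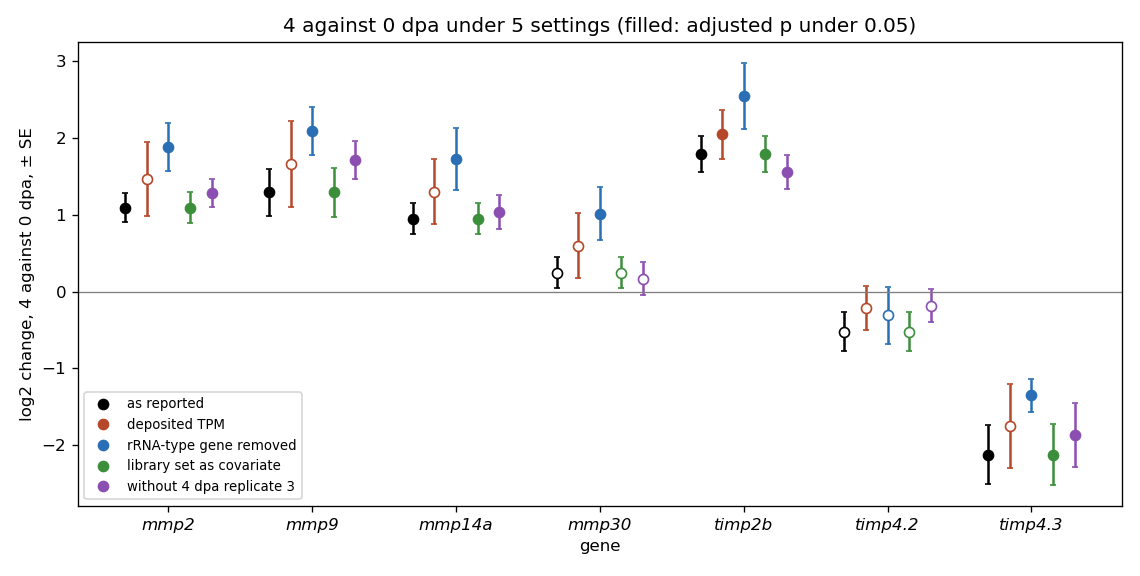
Log2 change at 4 against 0 dpa (y axis, ± SE) of the 6 tested members and timp4.3 under 5 settings: as reported, deposited TPM, rRNA-type gene removed, library set as a covariate, and without 4 dpa replicate 3; filled points have an adjusted p under 0.05. No gene changes direction among these settings, and of these genes only timp2b is called on deposited TPM.

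For each member called over time, the 3 tested genes with the most similar profile were taken by the Pearson correlation of log2(scaled TPM + 1) over the 15 libraries. They were marcksb (0.97), tuba8l3 (0.94) and rpe65b (0.94) for mmp2, and scxa, ngfb and mamdc2a (0.92, 0.92 and 0.91) for mmp9. For mmp14a they were pdzrn3b (0.95), aebp1 (0.95) and crip2 (0.94), and for timp2b they were mfsd10, slc7a1b and uhrf1 (0.93 each). The libraries share time points, scaling and depth differences, and these genes are the highest of 10235, so the coefficients only rank them.

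Genes that work beside the Mmps were followed in 5 lists. Of 23 further Mmp and Timp genes 4 had a row and 2 were tested: timp4.3, described above, and mmp23bb, which was not called (adjusted p over time = 0.609). Of 26 Adam and Adamts genes, related metalloproteinases that shed membrane proteins or cut proteoglycans, 9 were tested, and 4 rose and 0 fell at 4 against 0 dpa (adam8a, adam9, adamts3 and adamts15a), with a list median log2 change of 0.34. Of 12 plasminogen activation and proprotein convertase genes, which activate Mmp precursors, 6 were tested and 0 were called over time or at 4 against 0 dpa, with a list median log2 change of 0.13 at 4 against 0 dpa. Of 12 other matrix proteases 9 were tested, and 4 rose and 0 fell at 4 against 0 dpa (ctsla, bmp1a, htra1a and htra1b). The list median log2 change there was 0.55. The median of all tested genes in that comparison was -0.03, and 7.87% of them rose. Called over time were 4 of 9 Adam and Adamts genes and 1 of 9 other matrix proteases, beside 26.7% of tested genes.

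Most tested genes for matrix proteins that Mmps cut rose at 4 dpa. Of 14 listed genes 9 were tested, and 7 rose and 0 fell at 4 against 0 dpa, with a list median log2 change of 1.54. Of all listed pathway genes tnc and fn1b had the largest called rises. For tnc, which encodes tenascin C, a matrix protein of wounds and blastemas, scaled TPM was 8.67 ± 0.568 at 4 dpa, against 0.930 ± 0.284 at 0 dpa (SD, n = 3 each), and the log2 change was 2.33 ± 0.17 (SE) with adjusted p = 1.67e-06 in limma. For fn1b, a fibronectin gene, it was 125.1 ± 71.3 at 4 dpa, against 32.6 ± 12.8 at 0 dpa (SD, n = 3 each), and the log2 change was 1.85 ± 0.38 (SE) with adjusted p = 0.00449. No library overlapped between the 4 and 0 dpa groups in either gene. The numbers of substrate genes that rose against 0 dpa were 6 at 7 dpa, 2 at 14 dpa and 2 at 21 dpa, beside 2.53, 4.56 and 6.27% of all tested genes.

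Cell type markers moved over the same times. The counts of markers stand beside 26.7% of all tested genes that changed over time. The shares that rose at 4, 7, 14 and 21 against 0 dpa were 7.87, 2.53, 4.56 and 6.27%. In bulk tissue, more or fewer cells of a type and more or less RNA per cell cannot be told apart. Of 8 listed fin mesenchyme markers 7 were tested and 7 changed over time, and their summed scaled TPM was 32.6 to 49.3 at 0 dpa, 170.6 to 661.2 at 4 dpa, 61.3 to 75.9 at 7 dpa, 67.1 to 88.6 at 14 dpa and 104.3 to 134.7 at 21 dpa. Of 7 cell cycle genes 7 were tested and 7 changed, with sums of 27.3 to 32.5 at 0 dpa, 124.1 to 147.9 at 4 dpa, 36.5 to 46.96 at 7 dpa, 24.4 to 30.3 at 14 dpa and 23.5 to 36.2 at 21 dpa. The mesenchyme sum was above 0 dpa at every later time without overlap. At 4 dpa and1, an actinotrichia gene, made up 68.7 to 79.1% of that sum. Without and1 the sum at 7 dpa (41.3 to 62.2) overlapped that at 0 dpa (26.7 to 45.3), and the other later times stayed above. Of the 7 tested mesenchyme markers 4 rose at 4, 1 at 7, 1 at 14 and 4 at 21 against 0 dpa. All 7 cell cycle genes rose at 4 against 0 dpa, with a median log2 change of 1.98. At 7 against 0 dpa 1 of them (mcm5) did, the median was 0.15, and pcna made up 62.7 to 68.4% of the sum.

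Bone and epidermal markers were less uniform. Their counts stand beside 26.7% of all tested genes that changed over time and 7.87% that rose at 4 against 0 dpa. Of 8 osteoblast markers, all tested, 7 changed over time, with sums of 2217 to 7664 at 0 dpa, 1447 to 2727 at 4 dpa, 3921 to 11970 at 7 dpa, 5726 to 7553 at 14 dpa and 4336 to 7584 at 21 dpa. From 62.8 to 96.4% of this sum was bglap, a late bone matrix gene (log2 -1.21 at 4 against 0 dpa, not called). The other 7 markers summed to 200.7 to 273.5 at 0 dpa, 470.3 to 896.0 at 4 dpa, 585.8 to 891.5 at 7 dpa, 390.2 to 497.8 at 14 dpa and 371.3 to 456.1 at 21 dpa, above 0 dpa at every later time, and 3 of the 8 rose and 0 fell at 4 against 0 dpa. Of 6 osteoclast markers 4 were tested and 2 changed, with sums of 138.1 to 237.2 at 0 dpa, 110.9 to 615.3 at 4 dpa, 243.9 to 524.2 at 7 dpa, 149.4 to 189.9 at 14 dpa and 126.0 to 175.1 at 21 dpa, of which ctsk was 79.2 to 95.9%. Without ctsk the sum was 6.69 to 11.1 at 0 dpa, 10.1 to 73.6 at 4 dpa and 50.9 to 94.9 at 7 dpa. At 14 dpa it was 12.9 to 17.1 and at 21 dpa 7.11 to 10.5. It was above 0 dpa without overlap at 7 and 14 dpa, and overlapped with 0 dpa at 4 and 21 dpa. Of 7 epidermis markers, all tested, 3 changed, with sums of 6763 to 8066 at 0 dpa, 5068 to 6328 at 4 dpa, 6464 to 7229 at 7 dpa, 6123 to 6536 at 14 dpa and 6839 to 7277 at 21 dpa. The epidermis sum was lower at 4 dpa than at 0 dpa without overlap, but its members differed: krtt1c19e fell (log2 -1.27), krt17 rose (log2 1.59), and the other 5 were not called.

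Among blood and vessel cells, macrophages and neutrophils are known sources of Mmp9. Counts of their markers stand beside 26.7% of all tested genes that changed over time and 4.56% that rose at 14 against 0 dpa. Of 7 macrophage markers 4 were tested and 1 changed over time (cd74a), with sums of 8889 to 13690 at 0 dpa, 2204 to 5237 at 4 dpa, 4261 to 8487 at 7 dpa, 4258 to 6722 at 14 dpa and 3852 to 5802 at 21 dpa. Of 6 neutrophil markers 4 were tested and 2 changed, with sums of 6.52 to 10.9 at 0 dpa, 4.32 to 9.01 at 4 dpa, 5.18 to 8.40 at 7 dpa, 12.6 to 14.8 at 14 dpa and 6.42 to 8.99 at 21 dpa. From 98.5 to 99.7% of the macrophage sum was cd74a, an antigen presentation gene, whose libraries lay below 0 dpa at every later time and which fell by 1.60 on the log2 scale at 4 against 0 dpa (adjusted p = 0.0102 in limma) and was not called at 7, 14 or 21 against 0 dpa. The other 3 tested markers, mpeg1.1, csf1ra and lcp1, were not called at any later time against 0 dpa, and together they summed to 45.9 to 50.4 at 0 dpa and 28.5 to 67.8 at 4 dpa. The neutrophil sum was above 0 dpa at 14 dpa, where 2 of 4 tested markers rose (mpx and cpa5).

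The endothelium sum was 9.96 to 14.3 at 0 dpa, 24.05 to 25.7 at 4 dpa, 17.5 to 21.5 at 7 dpa, 15.6 to 18.8 at 14 dpa and 13.9 to 16.4 at 21 dpa, with 1 of 3 tested markers called over time, beside 26.7% of all tested genes. This sum was above 0 dpa without overlap at 4, 7 and 14 dpa, and pecam1 made up 62.4 to 78.3% of it. Of the 3 tested markers 2 rose at 4, 1 at 7, 1 at 14 and 0 at 21 against 0 dpa. The shares of all tested genes that rose were 7.87, 2.53, 4.56 and 6.27%. The red blood cell sum was 9.85 to 82.4 at 0 dpa, 101.4 to 237.2 at 4 dpa, 7.19 to 276.9 at 7 dpa, 88.1 to 180.1 at 14 dpa and 69.6 to 90.2 at 21 dpa, with 0 of 3 called. No marker with a row was at 0 in all libraries, and the part of any of these cell types in the Mmp and Timp changes was not tested.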

How the data were processed

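Bulk RNA-seq of 15 zebrafish fin libraries was used. The authors deposited TPM values for 14836 genes, and every column summed to 1000000. Salmon 1.4.0, Trim Galore 0.6.7, cutadapt 3.5 and the build danRer11 are named in the submitters' processing notes, and per the labels' protocols cDNA was amplified by PCR and cut with Tn5. The annotation and strand setting are not given in the sources used here. The protocols mention no molecular identifiers, so limits on read numbers cover counting error only.

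TPM were divided by median-of-ratios factors over the 10774 genes above 0 in all 15 libraries. The 10235 genes that reached a deposited TPM of 1 in 3 or more libraries were tested with limma 3.58.1 in R 4.3.3 on log2(scaled TPM + 1), with an intensity trend, 1 mean per time point, two-sided tests and Benjamini-Hochberg adjustment over all tested genes. Adjusted p under 0.05 is called changed. The series' design text calls the 3 libraries of a time point biological replicates, each a pool of 10 animals. Relative depth and effective-length offsets came from 30144 low TPM values of 3238 genes that were whole multiples of a step (residual SD 0.0312%), so depth is relative and read numbers hold if 1 step equals 1 read. The fits were tested on simulated data.

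Every listed member is named. Among the pathway lists, values are given for the 2 largest called rises and falls at 4 against 0 dpa and for called Mmp and Timp genes, and 1 fall was called. Genes named beside other counts of 5 or fewer were chosen after their values were seen. Likeness was ranked as described in the results. The members and lists were chosen with earlier results of these data known. The alternatives were deposited TPM, the rRNA-type gene removed, a pseudocount of 0.1, no filter, only the 2 time points compared, a replicate block, library set as a covariate, each library set alone, each library left out and, added after seeing the data, the 4 libraries with over 60% rRNA left out. RefSeq GRCz12tu was used only for gene types and gene order, since its build differs from danRer11.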

Additional observations from a re-analysis of the deposited data

How the results depend on the processing

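No called change of a tested member reversed its direction under any alternative run. On deposited TPM the number of members called was 1 over time, 1 at 4 against 0 dpa and 0 at 7, 14 and 21 against 0 dpa and at 14 against 7 dpa, beside 8.49%, 5.19%, 0.303%, 1.94%, 1.925% and 0.664% of all tested genes. At 14 against 7 dpa it was also 0 with the rRNA-type gene removed, without a filter, with a replicate block, with library set as a covariate and without the 4 libraries of highest rRNA share, beside 0.138 to 2.58% of genes. Fitting only the 2 time points compared gave 1 at 7 against 0 dpa, beside 0.579% of genes, and 0 at 21 against 0 dpa, beside 7.43%. Library set as a covariate gave 2 at 7 against 0 dpa (1.55% of genes) and 0 at 14 and 21 against 0 dpa (0.0391% and 0.303%), and leaving out the 4 libraries of highest rRNA share, chosen after seeing the data, gave 1 at 7 against 0 dpa (0.385%). In that fit 7 dpa had 1 library, assumed to vary like the others. With library set as a covariate the SE at 7, 14 and 21 against 0 dpa was wider, since the set effect rests on 7 dpa alone. The log2 estimates moved as well, and the cause of these losses was not tested. With each library left out in turn the counts ranged from 3 to 4 over time, 3 to 4 at 4, 2 to 4 at 7, 0 to 3 at 14 and 1 to 3 at 21 against 0 dpa, 0 to 1 at 14 against 7 dpa, and were 0 at 7 against 4 and at 21 against 14 dpa. The shares of all genes called in these fits were 19.1 to 31.3% over time and 9.51 to 16.5% at 4 against 0 dpa. They were 1.555 to 9.47% at 7, 3.92 to 11.4% at 14 and 8.58 to 15.4% at 21 against 0 dpa. At 14 against 7 dpa the share was 1.255 to 4.12%.

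Libraries of the same replicate number were no more alike than others. Across genes, deviations from the time point means correlated with a median of -0.02 over 30 same-number pairs (-0.63 to 0.65) and 0.04 over 60 other pairs (-0.72 to 0.82), and 5 of 15 libraries were closest to their own number. The libraries with the lowest rRNA share of each time point correlated with one another at 0.40 to 0.82. The part of that share was not tested. With so wide a spread, a smaller effect of replicate number could go unseen. The replicate block gave 4 members called over time, 4 at 4 against 0 dpa, 4 at 7, 2 at 14 and 2 at 21 against 0 dpa, beside 23.6, 13.9, 3.79, 8.53 and 12.0% of genes. It ended the calls of mmp9 at 14 against 0 dpa (log2 1.099, adjusted p = 0.0535) and of timp2b (0.0549) and timp4.3 (0.0699) at 14 against 7 dpa. Depth limits mmp13a and timp4.2, which had 39 reads or fewer in each library.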
